A study of Homo sapiens with 2 samples.

Results

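The genes described here make, elongate, activate and desaturate fatty acids in A427 cells, a line from a human non-small cell lung tumour whose cultures hold attached cells beside floating spheres. They are 10 of the 23686 gene symbols in the deposited tables: the desaturases SCD, FADS1 and FADS2, the synthesis enzymes ACLY, ACACA and FASN, the elongases ELOVL5 and ELOVL6, the acyl-CoA synthetase ACSL3 and the transcription factor SREBF1. The 10 were chosen by pathway role with their ratios between these same libraries already known, so their differences are described and not tested. Total RNA was taken from each growth form and sequenced from libraries made with an mRNA kit, 1 library of adherent cells and 1 of floating, sphere-forming cells. Both were grown in RPMI 1640 with 5% fetal bovine serum, and the labels give the genotype of both as WT, while the series title calls the cells CTNNB1-mutated.

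With 1 library per growth form there is no replicate, no test and no p-value. Each difference compares these 2 libraries, and its 95% interval describes counting error and leaves out any variation from culture to culture. The adherent library held 26384670 reads assigned to genes and the floating library 27148842. The comparison took in the 13131 genes that reached 1 CPM (1 read per 1000000 scaled reads) in the adherent or the floating library, all 10 pathway genes among them. Levels are given in TPM (transcripts per 1000000, a level corrected for gene length). Of the 5 epithelial markers, EPCAM was at 615 TPM in the adherent library and 582 TPM in the floating one. KRT8 and KRT18 were higher in floating cells, with log2 ratios of 0.87 and 0.88, while CDH1 was lower, with -0.39. KRT19 had 8 and 22 reads. Of the 3 mesenchymal markers, VIM was at 5264 and 4850 TPM (log2 ratio -0.07). CDH2 was at 2.81 and 1.88 TPM (-0.53) and FN1 at 5.7 and 4.85 TPM (-0.24). The 4 lung epithelial markers summed to 2.07 and 1.81 TPM, with SFTPC at 0 in both. The 4 leukocyte markers summed to 19.8 and 33.4 TPM, nearly all from CD68, with CD3E at 0 in both and PTPRC at 2.84 and 1.95 TPM. The 3 adipocyte markers summed to 0.15 and 0 TPM, the 3 endothelial ones to 0.13 and 0.42 TPM and the 2 hepatocyte ones to 0.12 and 0.15 TPM. The part of the keratin and CD68 differences in the results was not tested. In bulk RNA, fewer cells expressing a gene and less of its RNA per cell cannot be told apart.

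Fatty acid synthesis starts from citrate exported by mitochondria, which ATP citrate lyase (ACLY) splits into acetyl-CoA. Acetyl-CoA carboxylase (ACACA) makes malonyl-CoA from it, and fatty acid synthase (FASN) builds palmitate. Elongases lengthen the chain, stearoyl-CoA desaturase (SCD) puts the first double bond into saturated chains to give monounsaturated ones such as oleate, and the front-end desaturases FADS2 and FADS1 put further double bonds into polyunsaturated chains taken from the diet or medium. SREBF1 encodes SREBP-1, a membrane-bound factor that is cut free when sterols are low and activates most of these genes, with NF-Y bound at CCAAT boxes nearby as its usual partner.

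Promoters were sought for the genes with the largest differences, SCD, FADS2, SREBF1, FADS1 and FASN. Counted from 250 bases before the start, FADS2 had 0 bases before the first annotated exon and FADS1 had 56, too few to print. No RefSeq promoter sequence was found for FASN. The promoters of SCD and SREBF1 are shown. Both are RefSeq sequence on GRCh38.p14, whereas the deposited tables are on hg19 and carry no coordinates. Each run begins 250 bases before the RefSeq start and stops at the first exon of the GENCODE v29 annotation. SCD lies on the plus strand at chr10:100346983-100347123 and SREBF1 on the minus strand at chr17:17837003-17837236. Capitals mark CCAAT, the reverse complement of the motif ATTGG, which the SREBF1 run does not hold.
SCD: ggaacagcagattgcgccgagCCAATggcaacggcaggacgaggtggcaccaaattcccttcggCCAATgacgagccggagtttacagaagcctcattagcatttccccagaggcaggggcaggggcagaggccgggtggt
SREBF1: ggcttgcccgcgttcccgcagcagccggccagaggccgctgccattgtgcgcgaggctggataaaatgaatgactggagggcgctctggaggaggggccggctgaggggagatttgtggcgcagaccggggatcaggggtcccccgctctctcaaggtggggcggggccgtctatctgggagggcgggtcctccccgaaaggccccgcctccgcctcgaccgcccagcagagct

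RefSeq windows of 300 bases, 250 before and 50 after a start, were found for 9 of the 10 genes, 13 windows in all. No window was found for FASN, so its promoter was not searched. On either strand, ATTGG occurred in windows of 6 of the 9 genes (SCD, FADS2, ACACA, ACLY, ELOVL5 and ACSL3), in 8 of the 13 windows and in 34.6% of all 35116 RefSeq windows. In FADS2 ATTGG lay past the start, at bases 5 to 9, and in the other genes before it. SCD held ATTGG at bases -229 to -225 and -186 to -182 from the start. Windows of ELOVL5, ACLY and ACACA, genes that differed little between the libraries, also held 2 matches. Genes with large and with small differences thus both held it. The 2 ACLY windows overlap and hold the same sites, so these sites enter the count of windows more than once. The sterol-element letters TCACCCCAC and the looser TCACNCCAC, which contains them, occurred in none of the 13 windows, against 0.43% and 1.13% of all windows. The E-box CACGTG occurred in ELOVL5 alone of the 9 genes and in 7.26% of all windows. A match, or its absence in this window, describes letters only.

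**Figure D1:**
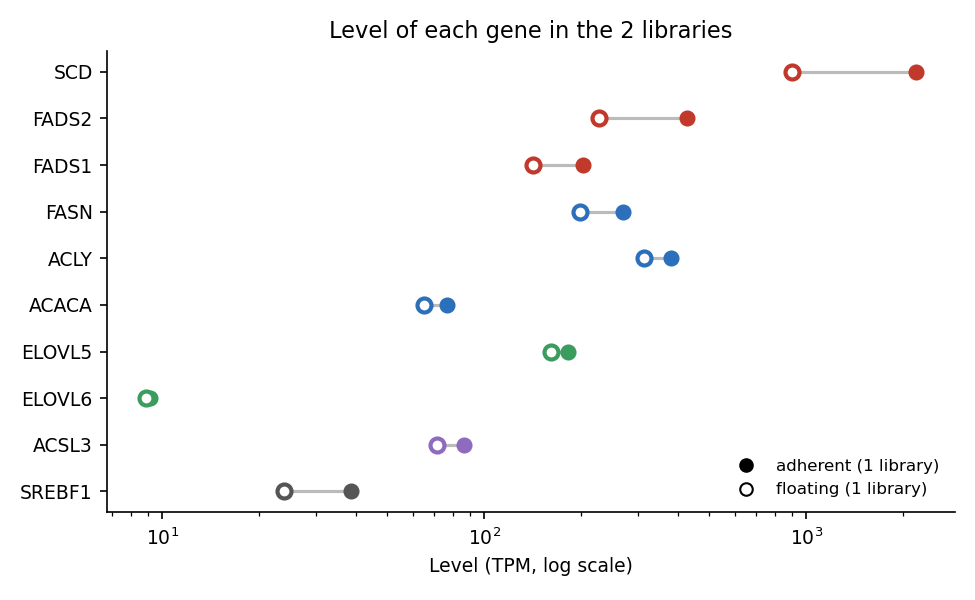
Level of each of the 10 genes in TPM on a log axis, with the adherent library as filled and the floating library as open circles, 1 library each, coloured by role (red desaturases, blue synthesis enzymes, green elongases, purple acyl-CoA synthetase, grey regulator). SCD, at 2196 and 904 TPM, lies far above the other genes in both libraries, and ELOVL6, at 9.13 and 8.89 TPM, far below.

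The 3 desaturases were lower in floating cells, and SCD by the most. SCD had 145398 reads in adherent and 63890 in floating cells, and its level was 2196 against 904 TPM. It was 2.35-fold lower in floating cells on scaled reads (interval 2.33 to 2.38). FADS2, the delta-6 desaturase that opens the polyunsaturated pathway, stood at 425 TPM (15745 reads) in the adherent library against 227 TPM (8982 reads) in the floating one, and was 1.81-fold lower there (1.77 to 1.86). FADS1, the delta-5 desaturase that acts later in the same pathway, stood at 202 TPM (10713 reads) and 142 TPM (8037 reads), 1.38-fold lower (1.34 to 1.42). The 3 intervals do not overlap, so within counting error the order of the differences was SCD, FADS2, FADS1.

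FADS1 and FADS2 lie head to head on chromosome 11, and in RefSeq their starts overlap by 800 bases or, for the other FADS2 start, by 599 bases. The sources used here do not give the strand setting of the counting, so reads from the shared stretch may have gone to either gene. Both estimates were whole numbers in both libraries, as were those of all 10 genes.

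SCD combined a high level with a large difference. In adherent cells it ranked at place 59 of all gene symbols by TPM, and in floating cells at place 150. It took up 0.551% of all gene-assigned reads in adherent cells (exact Clopper-Pearson interval 0.548 to 0.554) and 0.235% in floating cells (0.234 to 0.237). Its level was 1292 TPM lower in floating cells, and no other symbol in the table had a difference in TPM as large in that direction, the next being ALDH1A1, an aldehyde dehydrogenase, which was 951 TPM lower. Among the 1707 genes of at least 100 TPM in adherent cells, 3 were at least as much lower as SCD by ratio, SCD included, and 9 at least as much lower as FADS2, FADS2 included.

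**Figure D2:**
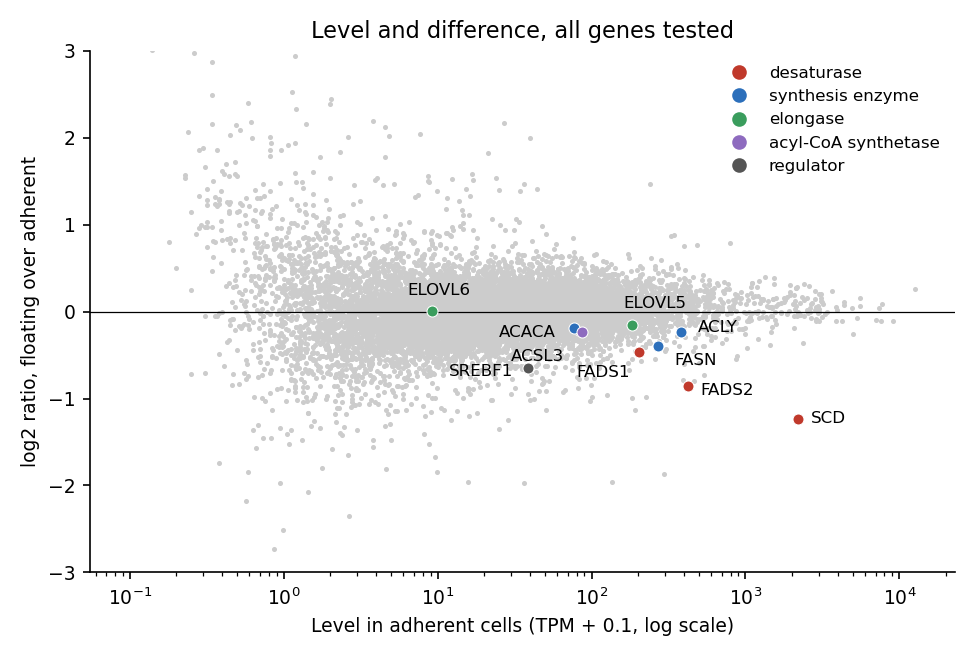
Level in adherent cells (TPM + 0.1, log axis) against the log2 ratio of floating over adherent cells, for the 13131 genes compared (grey) and the 10 pathway genes (coloured by role). 11 genes beyond 3 on the log2 scale are outside the plotted range. SCD stands alone at the lower right, at 2196 TPM and a log2 ratio of -1.24, and ELOVL6 lies on the line of no difference.

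The synthesis enzymes were lower by less. FASN had 28025 reads in adherent and 21985 in floating cells, or 270 and 198 TPM, which is 1.32-fold lower in the floating library (interval 1.30 to 1.34). ACLY had 19825 and 17415 reads, or 380 and 313 TPM, and was 1.18-fold lower (1.15 to 1.20). ACACA had 9059 and 8200 reads, or 76.6 and 65.0 TPM, and was 1.14-fold lower (1.11 to 1.18). All 3 were thus higher in the adherent library, FASN by the most, and the intervals of ACLY and ACACA overlap.

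Among the elongases, ELOVL5, which extends polyunsaturated chains, had 6232 and 5803 reads, or 182 and 162 TPM, and was 1.11-fold lower (interval 1.07 to 1.15). ELOVL6, which extends palmitate to stearate, the substrate of SCD, had 356 and 369 reads. Its levels were 9.13 and 8.89 TPM, and its log2 ratio of 0.003 had an interval from -0.21 to 0.22. ELOVL6 was thus the single gene of the 10 whose interval held no difference, and the sign of its ratio changed on TPM (-0.04) and with upper-quartile scaling (-0.01). ACSL3, which couples fatty acids to coenzyme A at the endoplasmic reticulum and lipid droplets, had 4454 and 3931 reads, or 86.5 and 71.5 TPM, and was 1.17-fold lower (1.12 to 1.22).

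SREBF1 had 2296 reads in adherent and 1514 in floating cells, or 38.6 and 23.9 TPM, a 1.57-fold difference (interval 1.47 to 1.68) with the floating library lower. Its difference lay between those of FADS2 and FADS1. The tables give 1 value per gene, so the SREBP-1a and SREBP-1c transcripts, which come from separate starts, are summed. SREBF2, which encodes the factor more active on cholesterol genes, stood at 81.4 and 66.8 TPM and was 1.18-fold lower (1.13 to 1.24). Reads of SREBF1 per read of SREBF2 were 0.547 in adherent and 0.412 in floating cells, a ratio of 0.753 between the libraries (0.695 to 0.815).

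Genes past 2-fold whose interval did not hold a ratio of 1 were called lower or higher. By that rule 1 of the 10 genes, SCD, was lower and none higher, beside 0.754% of all genes compared that were lower and 1.28% higher. At 1.5-fold, 3 of the 10 (SCD, FADS2 and SREBF1) were lower and none higher, beside 2.90% lower and 3.24% higher among all genes. Intervals lay wholly below no difference for 9 of the 10 and above it for none, beside 25.6% below and 25.5% above among all genes. Since the genes were picked with these ratios in view, nothing is read from these counts. By position, 0.373% of all genes compared had a lower ratio than SCD, 1.24% than FADS2, 2.48% than SREBF1, 5.50% than FADS1, 7.54% than FASN and 17.5% than ACLY. ACSL3 (18.1%), ACACA (21.8%), ELOVL5 (26.6%) and ELOVL6 (51.3%) lay well inside the range of all genes.

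**Figure D3:**
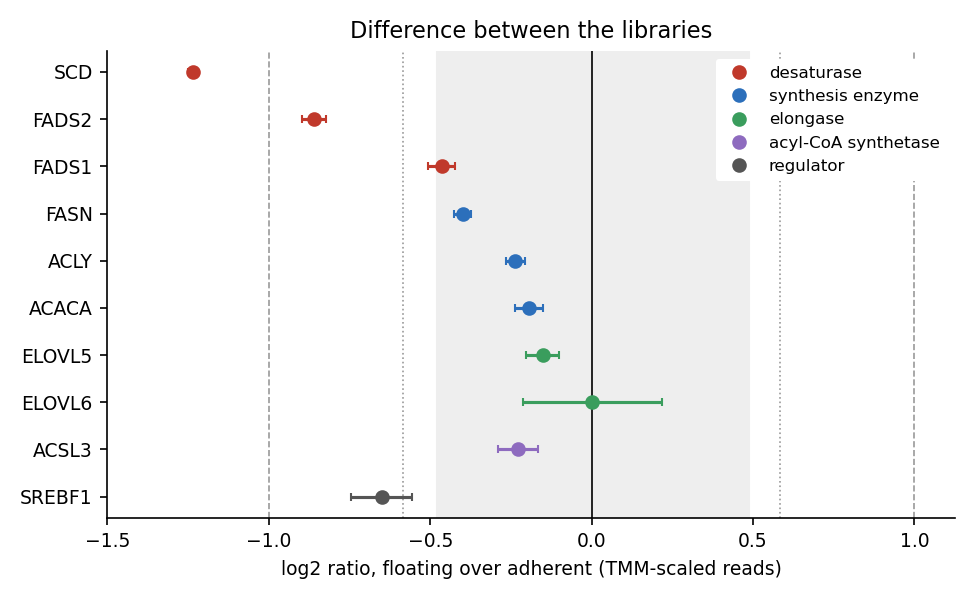
The log2 ratio of floating over adherent cells for each of the 10 genes with its 95% counting interval. The grey band holds the central part of all genes compared, from the 5th to the 95th percentile (-0.48 to 0.49), and dashed and dotted lines mark 2-fold and 1.5-fold. SCD, FADS2 and SREBF1 lie outside the band, FADS1 lies at its edge, and the other 6 lie inside it.

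The order of the levels changed as the desaturases moved down. In adherent cells the order by TPM was SCD, FADS2, ACLY, FASN, FADS1, ELOVL5, ACSL3, ACACA, SREBF1 and ELOVL6. In floating cells ACLY stood above FADS2, at 313 against 227 TPM, and ELOVL5 above FADS1, at 162 against 142 TPM, with the other places unchanged. With no replicate, it is not known which neighbours in this order differ beyond the spread between cultures. Summed over the 10 genes the level was 3867 TPM (adherent) and 2115 TPM (floating), and SCD made up 73.8% of the drop. SCD's share of the summed level was 56.8% in adherent and 42.7% in floating cells.

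Desaturases were then set against synthesis enzymes within each library, a ratio that needs no scaling between libraries. For each read of ACLY, ACACA or FASN there were 3.02 reads of SCD, FADS1 or FADS2 in adherent cells and 1.70 in floating cells. The floating ratio was 0.563 of the adherent one (exact conditional interval 0.555 to 0.571). Per length, the 3 desaturases summed to 2824 TPM when adherent and 1274 TPM when floating, 54.9% less, while the 3 synthesis enzymes summed to 727 and 576 TPM, 20.7% less. SCD weighs heavily in these sums. Without it, reads of FADS1 and FADS2 per synthesis read were 0.465 and 0.358, a ratio of 0.769 (0.752 to 0.787).

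Taken gene by gene, all 9 pairs of a desaturase with a synthesis enzyme had fewer desaturase reads per synthesis read in floating cells, with ratios from 0.485 to 0.956 and intervals below 1. SCD per ACACA read was at the far end, at 16.1 in adherent and 7.79 in floating cells. SCD per FASN was 5.19 and 2.91 in reads, and in levels per length SCD stood 8.14 times above FASN in adherent and 4.56 times in floating cells. FADS1 per FASN was at the near end, with 0.382 and 0.366 reads, a ratio of 0.956 (0.924 to 0.989). FADS1 thus differed from FASN by less than FASN did from the other synthesis enzymes, since FASN per ACLY changed by a ratio of 0.893 (0.869 to 0.918) and FASN per ACACA by 0.867 (0.837 to 0.897). ACACA and ACLY kept their proportion within counting error, at 1.03 (0.994 to 1.07). The desaturases also differed among themselves, with SCD per FADS2 at 0.770 (0.749 to 0.792) and FADS2 per FADS1 at 0.760 (0.731 to 0.791). Summed reads of the 2 elongases per synthesis read were 0.116 in adherent and 0.130 in floating cells, a ratio of 1.12 (1.08 to 1.16). This depended on the synthesis enzyme. ELOVL5 gave 1.19 per FASN (1.14 to 1.24), 1.06 per ACLY (1.02 to 1.10) and 1.03 per ACACA (0.982 to 1.08). ELOVL6 gave 1.32 per FASN (1.14 to 1.53), 1.18 per ACLY (1.02 to 1.37) and 1.15 per ACACA (0.984 to 1.33), so against ACACA both elongases were within counting error.

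**Figure D4:**
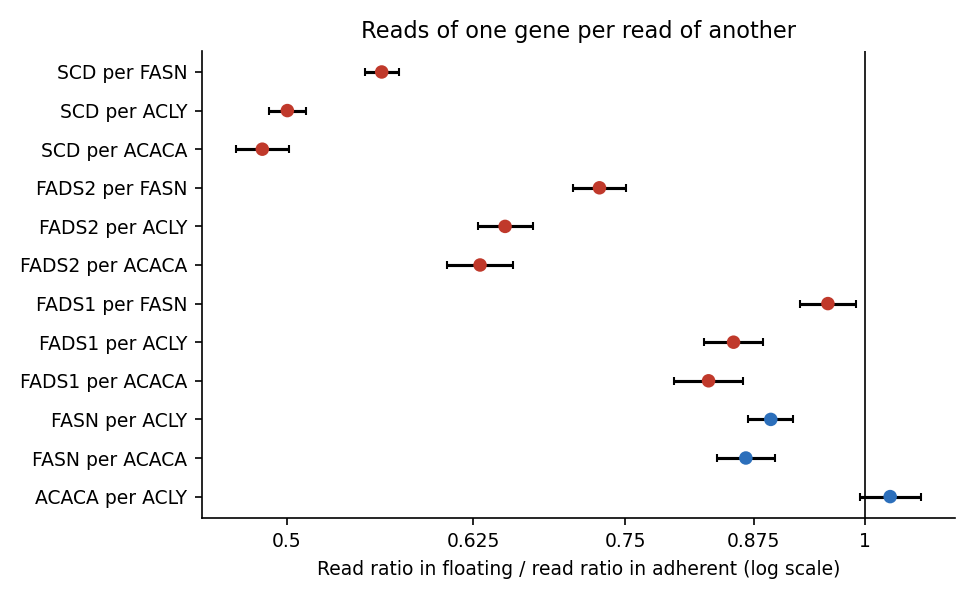
Reads of one gene per read of another, given as the floating value divided by the adherent value on a log axis, with the exact 95% counting interval; red marks a desaturase against a synthesis enzyme and blue 2 synthesis enzymes. The SCD pairs lie near 0.5, FADS1 per FASN lies at 0.956 close to the line of no difference, and ACACA per ACLY lies across it.

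Of the other desaturases, SCD5, FADS3 and DEGS1 lay closer to no difference than SCD, FADS2 and FADS1 did, and DEGS2, with few reads, did not. Of 8 desaturase genes listed by role, 7 passed the limit of 1 CPM, with 5 intervals below no difference and none above, beside 25.6% and 25.5% of all genes. Without SCD, FADS1 and FADS2, which were chosen with their ratios known, it was 2 of 4 below. SCD5, the other stearoyl-CoA desaturase of humans, stood at 29.9 and 25.9 TPM 1.14-fold lower in the floating library (interval 1.04 to 1.24). FADS3, the other gene of the FADS cluster, was at 29.9 and 30.9 TPM with an interval that held no difference (log2 -0.07 to 0.25). DEGS1, which desaturates dihydroceramide to make ceramide, was at 88.8 and 87.1 TPM (log2 interval -0.07 to 0.10). DEGS2, a related enzyme named after its value was seen, had 58 and 29 reads and was past 2-fold with a wide log2 interval, -1.75 to -0.38. FADS6 had 0 reads in both libraries. Electrons reach these enzymes through cytochrome b5 and its reductases, and of 7 such genes 4 had intervals above no difference and none below, beside 25.5% and 25.6% of all genes, with a median log2 ratio of 0.14. Of the cytochrome b5 genes, CYB5A stood at 148 and 173 TPM (log2 ratio 0.26). CYB5B had a log2 ratio of 0.05 with an interval that held no difference (-0.01 to 0.10).

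The remaining lipid genes were grouped by role in lists written from textbook knowledge, and each count is to be read beside the shares of all genes given above and their median log2 ratio of -0.005. Of 8 genes of citrate and acetyl-CoA supply, 4 intervals lay below and 2 above no difference. ACSS2, which makes acetyl-CoA from acetate, was at 48.6 and 43.0 TPM (log2 ratio -0.13), and the citrate carrier SLC25A1 at 86.7 and 80.3 TPM (-0.05). Among 8 genes of malonyl-CoA and palmitate synthesis, ACACB, the mitochondrial-surface carboxylase whose product limits fatty acid import, was at 11.3 and 7.90 TPM and 1.39-fold lower (interval 1.28 to 1.51). The mitochondrial synthesis enzyme MECR was 1.31-fold higher (1.10 to 1.55). In this list 3 intervals lay below no difference, those of ACACA, FASN and ACACB, and 1 above, that of MECR. Its median of 0.02, or -0.08 on TPM, pools mitochondrial genes with ACACA and FASN and so does not describe those 2 enzymes. Of 9 genes that supply NADPH, the reductant of synthesis, 8 passed the limit, with 3 intervals below and 2 above. None of the genes in these 3 lists was past 1.5-fold in either direction.

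The elongation cycle showed small differences throughout. Of 13 genes 12 passed the limit, 4 intervals lay below and 1 above no difference, and the median log2 ratio was -0.03. ELOVL1, which makes very long saturated chains, was at 111 and 118 TPM and was the one with its interval above (log2 ratio 0.14). ELOVL4 and ELOVL7 had log2 ratios of -0.20 and -0.15, and the ketoreductase HSD17B12 one of -0.06. Among 14 acyl-CoA synthetases and fatty acid transport proteins 10 passed the limit, with 2 intervals on each side. ACSL4, which prefers arachidonate, was at 60.3 and 61.7 TPM (log2 ratio 0.08), and SLC27A4 was 1.25-fold higher (interval 1.13 to 1.37).

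Genes that process or assist SREBPs went both ways. Of 22 listed regulators 21 passed the limit. Without SREBF1, 7 of 20 intervals lay below no difference and 4 above, and none of the 20 was past 1.5-fold. INSIG1, which retains the SREBP complex in the endoplasmic reticulum and is itself a target of SREBPs, stood at 98.9 and 70.6 TPM and was 1.37-fold lower (interval 1.30 to 1.44). The transcription factor SP1 stood at 111 and 79.9 TPM, 1.35-fold lower (1.31 to 1.39), and the NF-Y subunit NFYA had a log2 ratio of -0.29, the site-1 protease MBTPS1 one of -0.30. The escort protein SCAP was at 46.8 and 42.8 TPM, with a log2 interval that ended at -0.0003. On the other side were the coactivator PPARGC1B (log2 ratio 0.44) and NR1H3, which encodes LXR-alpha, an activator of SREBF1 (0.39, from 121 and 164 reads). Cholesterol synthesis and uptake genes, the other target set of SREBPs, had a median log2 ratio of -0.28 over 23 of 24 listed genes, with 19 intervals below no difference, none above and none past 1.5-fold. The ratios of SCD, FADS2 and SREBF1 were farther from no difference than that of IDI1 (-0.57), the lowest of those genes.

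**Figure D5:**
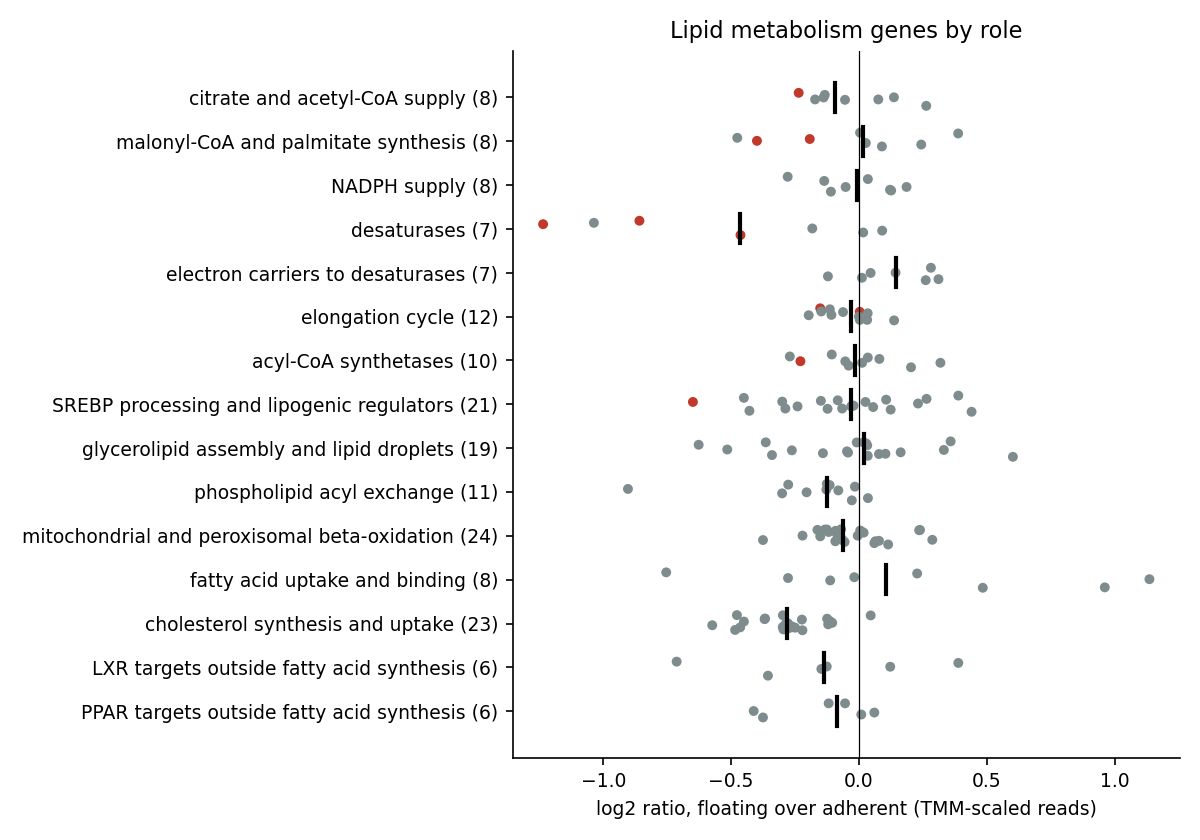
The log2 ratio of floating over adherent cells for each gene of at least 1 CPM in 15 lists of lipid metabolism genes, with the number of such genes in brackets; red points are the 10 pathway genes, grey points the others, and black bars the medians. The desaturase list spreads from -1.24 to 0.09, the cholesterol list sits together around -0.28, and most other lists centre near no difference.

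Genes that use or store fatty acids also varied. Of 25 genes of glycerolipid assembly and lipid droplets 19 passed the limit, with 6 intervals below and 3 above no difference. DGAT2, which makes triglyceride and prefers newly made fatty acids, was at 31.7 and 19.8 TPM and 1.54-fold lower (interval 1.39 to 1.72), and the triglyceride lipase PNPLA2 was 1.43-fold lower (1.32 to 1.55). The droplet assembly gene BSCL2 was 1.52-fold higher (1.35 to 1.71), and LPIN1 had a log2 ratio of -0.01. Of 11 genes of phospholipid acyl exchange, 8 intervals lay below and none above, with a median of -0.13. PLA2G4A, the phospholipase that releases arachidonate, had 438 and 242 reads and was 1.87-fold lower (1.60 to 2.20). In beta-oxidation 24 of 27 genes passed the limit, with 8 intervals below, 1 above and none past 1.5-fold. CPT1A, the gate of fatty acid entry into mitochondria, stood at 174 and 129 TPM and was 1.30-fold lower (1.26 to 1.33), close to FASN.

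The genes whose pattern was most like that of SCD were sought among genes of at least 100 TPM in adherent cells, by the smallest absolute difference of log2 ratios over the 2 libraries. They were ID3 (0.10 away from SCD), COL5A2 (0.24), CALB2 (0.25), COL3A1 (0.26) and LRRTM4 (0.27). None of these is in the lists of lipid genes, and their levels in adherent cells, from 101 TPM for COL3A1 to 227 TPM for CALB2, were far under that of SCD. With 2 libraries this likeness is a single number per gene.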

How the data were processed

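The submitters' processing notes name FastQC 0.11.1, STAR 2.5.3a, RSEM 1.3.3 and the build hg19. The sources used here do not give the annotation, options or strandedness. Estimated counts per gene symbol, without normalization, were deposited by the authors; 6.38% of the adherent column and 6.55% of the floating column are not whole. The authors also deposited TPM, scaled so that each column sums to about 1000000. Columns were matched to samples through the titles they carry.

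Estimated counts were rounded and scaled with the TMM factors of edgeR 4.0.16. Log2 ratios (floating over adherent) were taken on (count + 0.5) per effective library size, for genes that reached 1 CPM in either library. Intervals are exact at 95%: Clopper-Pearson given a gene's summed reads, or conditional on the margins for ratios of read ratios. Intervals cover counting error only and treat each read as independent. No molecular identifiers are named in the protocols, so copies of one molecule may count as separate reads. The intervals may then be too narrow even for counting error. With 1 library per group no test was run. The calculation was checked on a simulated pair of libraries. Alternatives scaled by library totals, by the upper quartile or by the size factors of DESeq2 1.42.0, or used TPM (log2 of TPM + 0.1), another prior (5) or other filters. Named were the 10 genes, from each list up to 2 at either end among genes of at least 5 CPM, and some further genes fixed by name; where a list gene outside this is given, it was chosen after its value was seen. The 10 genes, the lists and the calls were chosen with earlier results of these data known. Python 3.11.15 with scipy 1.17.1 was used outside R 4.3.3.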

Additional observations from a re-analysis of the deposited data

How the results depend on the processing

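The counts of pathway genes past 2-fold (1) and past 1.5-fold (3) were the same with DESeq2 size factors, library totals, the upper quartile, TPM, a prior of 5, a 5 CPM minimum, no filter and the fold alone, and with a 4-fold threshold the first became 0. Of 70 log2 ratios of the 10 genes under the 7 other settings, 63 stayed inside the counting interval. The 7 outside it were 6 on TPM and SCD with the upper quartile. Ratios on TPM were lower by about the shift of all genes, whose median moved by -0.04, the largest shift of any scaling tried. SCD ranged from -1.28 to -1.23, FADS2 from -0.90 to -0.85 and SREBF1 from -0.69 to -0.64. The desaturase-to-synthesis ratio was 0.569 on TPM, and it depended on the genes taken: 0.769 for FADS1 and FADS2 without SCD, 0.525 for SCD alone, 0.600 against FASN alone and 0.554 with the elongases and ACSL3 added to the synthesis enzymes. Of 105 list medians 2 moved by more than the counting error, both of the desaturases, to -0.32 with no filter and with 5 CPM, since the genes counted change. Within counting error, medians changed sign for the LXR targets (-0.14 to 0.13 with 5 CPM), fatty acid uptake (0.10 to -0.03 with no filter and -0.02 with 5 CPM), malonyl-CoA and palmitate synthesis (0.02 to -0.08 on TPM), glycerolipid assembly (0.02 to -0.03 on TPM and -0.01 with no filter) and NADPH supply (-0.01 to 0.0002 with DESeq2 size factors). No paired analysis was possible because each growth form had 1 library, and no library could be left out.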

Other observations

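Some genes of fatty acid handling were absent or nearly so from both libraries. The lipid droplet coat gene PLIN2 had 1 read in adherent and 0 in floating cells, while PLIN3 was at 53.2 and 55.4 TPM. A count of 0 allows up to 3 reads, or 0.11 CPM, in either library. THRSP, a lipogenic cofactor, and ABCA1, a cholesterol exporter and LXR target, had 0 reads in both. These genes were chosen after their values were seen. The fatty acid receptor CD36 had 59 and 36 reads. Of 12 genes of fatty acid uptake and binding 8 passed the limit of 1 CPM. FABP5, a cytosolic fatty acid carrier, was at 108 and 147 TPM, 1.40-fold higher in floating cells (interval 1.27 to 1.54). The lipoprotein lipase gene LPL had 27 and 62 reads and was past 2-fold (log2 ratio 1.14, interval 0.48 to 1.86), beside 1.28% of all genes called higher. The receptor gene VLDLR had 36 and 73 reads.

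LXR and PPAR receptors sense oxysterols and fatty acids. Of 7 LXR targets outside fatty acid synthesis 6 passed the limit, with 2 intervals below and 1 above no difference. LPCAT3, which loads polyunsaturated chains into phospholipids, was at 106 and 94.6 TPM. Of 9 PPAR targets 6 passed, with 3 intervals below and none above. PDK4, a kinase that holds back pyruvate oxidation, stood at 469 and 342 TPM and was 1.33-fold lower (1.30 to 1.36).

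Reads per TPM reflect a gene's effective length, which changes when the estimated mix of its transcripts changes. Relative to the median gene, this value was 1.68% lower in floating cells for ELOVL5 and between -0.27% and 0.14% for the other 9 pathway genes. Of 10598 genes with at least 100 reads and 5 TPM in both libraries, 5.37% had a shift at least as large as that of ELOVL5.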
